A study of Mus musculus with 18 samples.

Results

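Fibroblasts from pancreatic tumors of mice lacking Saa3 (KO_CAF, 3 libraries) were set against normal pancreatic fibroblasts (NPF, 3 libraries), to see which tumor-fibroblast changes arise without Saa3. The 6 libraries were chosen by their treatment label, out of 18 in 5 groups. The other groups are tumor fibroblasts with intact Saa3 (WT_CAF, 5 libraries), which are set beside the comparison, and 2 groups of tumor cells, which entered only the check on the index described near the end. Mice of the NPF group were K-Ras+/+, and no Trp53 or Saa3 allele is named for them. Mice of the KO_CAF group carried K-Ras+/LSLG12Vgeo with Trp53lox/lox and were Saa3-/-. WT_CAF mice had the K-Ras and Trp53 alleles of KO_CAF mice and no named Saa3 allele. All of these groups shared Elas-tTA/tetO-Cre, in which the acinar elastase promoter drives Cre through tTA, and Rosa26+/EYFP. KO_CAF and NPF thus differ in K-Ras, Trp53, tumor and Saa3 at once, and what each adds cannot be told apart in this comparison. The sources used here do not give age, sort markers or whether animals were pooled.

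The form of the sample labels also differs fully between the 2 groups. The labels of all 3 NPF libraries name no index sequence. Those of KO_CAF 1 and 2 name an index of 6 bases, and that of KO_CAF 3 names one of 16 bases. Whatever the form stands for in library preparation or sequencing cannot be told apart from the groups. Replicate numbers follow the order of deposition and have no other meaning.

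Saa3 encodes a serum amyloid A protein of the acute phase response that is made outside the liver, including by stromal cells. Cancer-associated fibroblasts build the collagen-rich stroma of pancreatic tumors. They are commonly described in a contractile, matrix-producing state and an inflammatory state, the latter with high cytokines, chemokines, complement and acute phase proteins under NF-kappaB and JAK-STAT signalling.

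The values are FPKM, fragments per transcript length and mapped fragments. The table lists 23951 genes, of which 11618 reached 1 FPKM in at least 3 of the 6 libraries and were tested on the log2(FPKM + 1) scale. Each library had 11030 to 11468 genes at 1 FPKM or more and a sum of FPKM between 454838 and 919859. The fragment depth is unknown. Spearman correlations over genes were 0.944 to 0.968 within NPF, 0.935 to 0.944 within KO_CAF and 0.913 to 0.936 between the groups. NPF 1 had the highest FPKM sum and the lowest number of genes detected, and lay farthest from KO_CAF on the first principal component. That component held 45.9% of the variance, and on it NPF stood at -77.28 to -26.21 and KO_CAF at 44.69 to 55.71.

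Saa3 itself stood at 331, 5.32 and 3.13 FPKM in NPF 1, 2 and 3 and at 1.85, 1.16 and 0.434 FPKM in KO_CAF 1, 2 and 3. Every KO_CAF library was below every NPF library, but NPF 1 was far above the other 2 NPF libraries. The difference was -3.31 ± 1.54 (log2, KO_CAF minus NPF, ± SE) and was not called (adjusted p = 0.295). In WT_CAF the gene stood at 7.24, 892, 4278, 1182 and 2270 FPKM. Saa3 was thus low in KO_CAF and in NPF 2 and 3, and high in WT_CAF 2 to 5 and NPF 1. WT_CAF 1 stands apart from the other WT_CAF libraries, with Pdgfra at 9.80 FPKM against 81.0 to 121. Its Spearman correlations were 0.889 to 0.911 with the other WT_CAF libraries and 0.910 to 0.918 with NPF. With the tumor cell libraries they were 0.887 to 0.942, of which 0.942 was its highest with any library. Differences of KO_CAF from WT_CAF are given with and without WT_CAF 1.

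Mpp6, which encodes a membrane-associated guanylate kinase scaffold, reached 131, 182 and 137 FPKM in KO_CAF, compared with 4.65, 6.26 and 5.12 FPKM in NPF. KO_CAF was 28.0-fold higher by group means, and the difference of 4.56 ± 0.26 on the log2 scale was called (adjusted p = 0.00319). The WT_CAF libraries held 10.8, 3.79, 3.85, 5.17 and 12.5 FPKM. All were far below KO_CAF, and WT_CAF 1 and 5 were above every NPF library. Mpp6 was therefore high in KO_CAF alone among the 3 fibroblast groups, and it was called in each of the 15 alternative settings. Pdgfra, the platelet-derived growth factor receptor that marks fibroblasts, held 61.0, 75.5 and 119 FPKM in the NPF libraries and 105, 123 and 103 FPKM in KO_CAF, so the groups overlapped (0.42 ± 0.35, adjusted p = 0.554).

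Over all genes, 175 were higher in KO_CAF (1.51%) and 148 were lower (1.27%) at an adjusted p under 0.05, 323 in all (2.78%). Each of the 323 differed by at least 2-fold on the log2(FPKM + 1) scale, and in each the libraries of the groups did not overlap. The median over all genes tested was -0.04, and 47.06% of genes lay above 0. Without overlap between the groups were 3243 genes (27.9%), 1499 with KO_CAF higher (12.9%) and 1744 with KO_CAF lower (15%). The count fell most without NPF 2, to 19 genes called higher and 13 lower. That leaves NPF 1 and 3, the least correlated pair of NPF libraries (0.944). Without the other libraries in turn, 54 to 129 were called higher and 32 to 93 lower. Called whichever of the 6 libraries was left out were 19 higher genes and 12 lower genes, among them Hp, Calca, Dmkn, Ctsc, Rdh10, Kcnj8 and Mpp6 on the higher side and Cck, Ccnd1, Klk8, Perp, Hoxb9, Prl2c2 and Prl2c3 on the lower. Of the 87 called genes that the rule names, 15 were called whichever library was left out. Without NPF 2, 72 lost their call and none changed direction. Another 15 lost their call without each of the 6 libraries in turn: Cela2a, Ctrb1, Oas2, Irf7, Hoxb5, Ppp1r14a, Abcc9, Csf1r, Idi1, Gsr, Gclm, Slc7a11, Itgb8, Gpc4 and Efna1. The plot of all genes tested shows that called genes of both directions lay at low and at high levels.

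**Figure D1:**
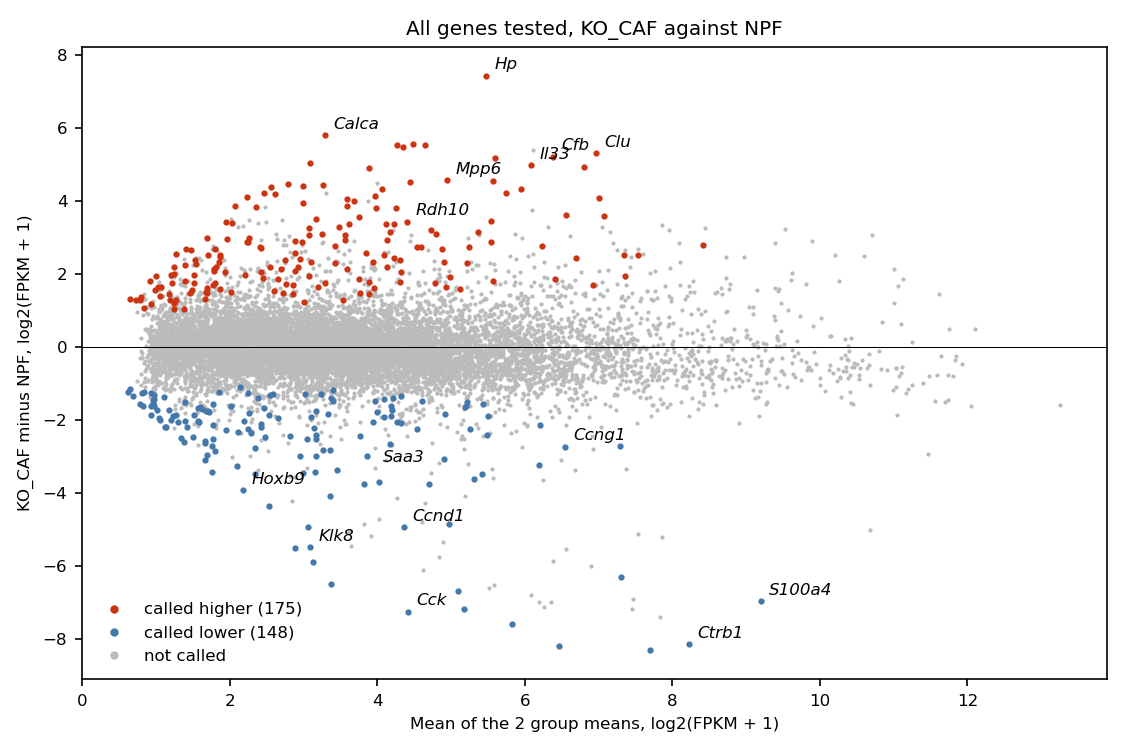
Each point is 1 of the 11618 genes tested. The x axis is the mean of the 2 group means and the y axis the difference between KO_CAF and NPF, both on the log2(FPKM + 1) scale. Red points are the 175 genes called higher in KO_CAF, blue points the 148 called lower and grey points genes that were not called, among them Saa3.

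Acute phase genes were higher in KO_CAF, which lacks Saa3. Hp, which encodes the hemoglobin-binding protein haptoglobin, showed the largest rise of any gene that met the rule for named genes. It was at 5.09, 0.387 and 2.61 FPKM in NPF against 478, 609 and 527 FPKM in KO_CAF, a 199.7-fold difference of means (7.42 ± 0.53, adjusted p = 0.00319). Lcn2, which encodes the siderophore-binding lipocalin 2, reached 212, 92.5 and 83.6 FPKM in KO_CAF, compared with 10.9, 0.215 and 0.190 FPKM in NPF (5.52 ± 0.91, adjusted p = 0.0300). Both genes were high in all KO_CAF libraries, and NPF 1 was the highest NPF library for both. Of 14 acute phase genes, 5 were tested. Of these, 2 were called higher (Hp and Lcn2), against 1.51% of all genes, and none lower, with a median of 3.28. A gene could pass the filter through KO_CAF alone, so the direction of this median is partly set by the filter. Without NPF 2, 1 of the 2 was called. Lcn2 kept its call in 4 of the 15 alternatives and Hp in 14. A2m, a protease inhibitor of plasma, held 5.36, 1.04 and 0.404 FPKM in the NPF libraries and 72.1, 293 and 87.4 FPKM in KO_CAF (5.56 ± 0.71, adjusted p = 0.0173). Lrg1, a secreted leucine-rich glycoprotein of the acute phase, was at 0.475, 0.0406 and 0.145 FPKM in NPF against 9.08, 110 and 55.8 FPKM in KO_CAF (5.05 ± 0.81, adjusted p = 0.0276). Of the 15 alternatives, Lrg1 kept its call in 5 and A2m in 12.

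Complement genes were the list with the most called members on the higher side, jointly with Wnt signalling. Of 14 tested, 5 were called higher (among them Cfb, C1rb, C2 and C4b), against 1.51% of all genes. None was called lower, the median was 2.57 and 13 lay above 0. Cfb, factor B of the alternative pathway, reached 219, 495 and 884 FPKM in KO_CAF, compared with 8.61, 9.47 and 18 FPKM in NPF (5.21 ± 0.56, adjusted p = 0.00862). C4b, a component of the classical pathway, held 13.9, 13.4 and 25.2 FPKM in the NPF libraries and 189, 1107 and 739 FPKM in KO_CAF (4.92 ± 0.67, adjusted p = 0.0192). KO_CAF 1 was the lowest KO_CAF library for both, yet far above every NPF library. C2, a protease of the classical pathway, differed by 3.45 ± 0.47. Activating components of both pathways were thus higher. C3, the central component, was at 65.6, 194 and 586 FPKM in NPF against 1353 and 2508 FPKM in KO_CAF 1 and 3. It is listed at 0 in KO_CAF 2, which was set to missing, and the difference of 3.23 ± 0.97 was not called (adjusted p = 0.152). Clu, which encodes the complement-binding chaperone clusterin, reached 1333, 272 and 653 FPKM in KO_CAF, compared with 6.48, 10.8 and 42.2 FPKM in NPF (5.31 ± 0.80, adjusted p = 0.0237). The call of Clu was kept in 8 of the 15 alternatives. Without NPF 2, none of the complement list was called, and between 2 and 6 were called without any other library.

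**Figure D2:**
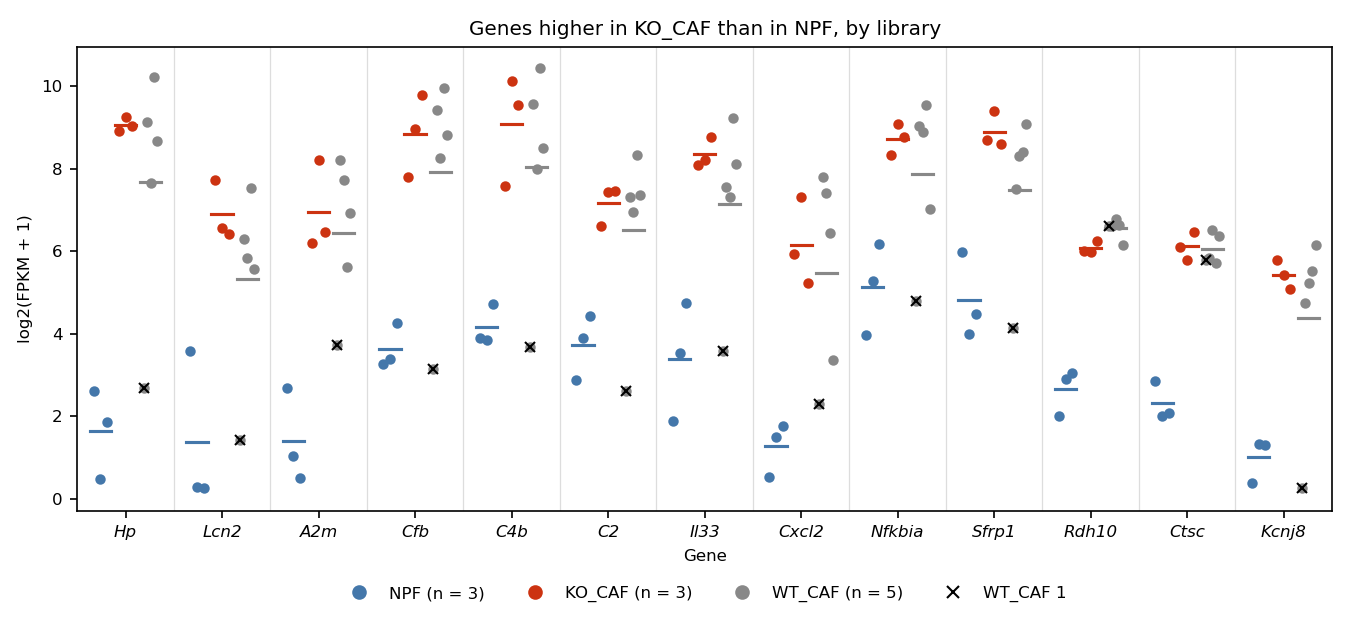
Levels of 13 genes called higher in KO_CAF than in NPF, as log2(FPKM + 1) for each library (points) with the group mean (line). Blue is NPF (n = 3), red KO_CAF (n = 3) and grey WT_CAF (n = 5), and a cross marks WT_CAF 1, which was near NPF for Hp (5.45 FPKM) and near KO_CAF for Rdh10 (96.5 FPKM) and Ctsc (54.1 FPKM).

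The plot of genes that rose also covers NF-kappaB-linked and cytokine genes. In the list of the IL6 family and inflammatory fibroblasts, 3 of 20 genes were called higher (Il33, Nfkbia and Il1r1), against 1.51% of all genes. None was called lower, the median was 1.24 and 18 lay above 0. Il33, an alarmin cytokine, held 2.65, 10.5 and 25.6 FPKM in the NPF libraries and 269, 294 and 431 FPKM in KO_CAF (4.97 ± 0.69, adjusted p = 0.0200). Nfkbia, the NF-kappaB inhibitor that NF-kappaB itself induces, was at 14.7, 37.5 and 70.5 FPKM in NPF against 320, 542 and 434 FPKM in KO_CAF (3.59 ± 0.58, adjusted p = 0.0280). In both genes NPF 1 was lowest and NPF 3 highest among NPF, and every KO_CAF library was above them, as in every gene called higher. Il6 reached 133, 929 and 609 FPKM in KO_CAF, compared with 130, 101 and 169 FPKM in NPF, with overlap between the groups (1.68 ± 0.73, adjusted p = 0.271).

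Among chemokines, 3 of 17 tested were called higher (Cxcl2, Cx3cl1 and Cxcl10), against 1.51% of all genes, and none lower, with a median of 1.003. Cxcl2, which attracts neutrophils, held 0.432, 1.83 and 2.41 FPKM in the NPF libraries and 60.2, 157 and 36.3 FPKM in KO_CAF (4.89 ± 0.58, adjusted p = 0.0133). Cxcl10, which attracts T cells, was at 6.17, 2.05 and 4.03 FPKM in NPF against 18.7, 70.4 and 86.6 FPKM in KO_CAF (3.38 ± 0.61, adjusted p = 0.0389). Cxcl2 and Cxcl10 were thus at 6.17 FPKM or less in NPF and at 18.7 FPKM or more in KO_CAF. Ccl2 and Cxcl12, chemokines known to be abundant in fibroblasts, did not pass the test: Ccl2 reached 186, 1516 and 874 FPKM in KO_CAF, compared with 549, 655 and 460 FPKM in NPF. Of 26 immediate early genes 25 lay above 0, with a median of 1.54. Called higher were 2 (Ier3 and Nr4a2), against 1.51% of all genes, and none was called lower. Their list mean on the log2(FPKM + 1) scale was 4.84, 6.67 and 7.31 in NPF and 7.17, 8.04 and 7.66 in KO_CAF, so NPF 1 stood apart and NPF 3 was above KO_CAF 1. Ier3, a stress and NF-kappaB responsive gene, held 112, 143 and 129 FPKM in the NPF libraries and 716, 1119 and 883 FPKM in KO_CAF (2.80 ± 0.39, adjusted p = 0.0204). Tnfaip3, an inhibitor of NF-kappaB signalling chosen after its values were seen, was at 3.65, 8.85 and 14.8 FPKM in NPF against 68.9, 87.7 and 71.6 FPKM in KO_CAF (3.09 ± 0.45, adjusted p = 0.0218). Without NPF 2, no member of the inflammatory, chemokine or immediate early lists was called.

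The promoters of 4 of these genes are shown because they hold a motif like the sites, beginning with GGG, that NF-kappaB binds. They were chosen for holding it: Il33, Il1r1, Cx3cl1, Ier3 and Nr4a2, called in the same lists, have promoters in the table with no match. The motif GGG followed, after 2 free bases, by TTTCC or TTCCC (10 bases in all) was searched on both strands of the 300 bases from 250 before to 50 after each gene start in RefSeq (GRCm38.p6). The 2 forms of the motif cannot match at the same start on 1 strand but may overlap elsewhere. Shown are the 250 bases before the start, 5′ to 3′ along the gene, with matches in capitals.
Cxcl2, chr5:90903649-90903898, plus strand: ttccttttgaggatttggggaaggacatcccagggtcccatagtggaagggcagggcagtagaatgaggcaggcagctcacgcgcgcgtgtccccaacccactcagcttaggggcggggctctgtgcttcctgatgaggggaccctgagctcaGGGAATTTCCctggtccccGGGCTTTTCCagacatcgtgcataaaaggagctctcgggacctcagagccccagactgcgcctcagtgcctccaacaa
Nfkbia, chr12:55492648-55492897, minus strand: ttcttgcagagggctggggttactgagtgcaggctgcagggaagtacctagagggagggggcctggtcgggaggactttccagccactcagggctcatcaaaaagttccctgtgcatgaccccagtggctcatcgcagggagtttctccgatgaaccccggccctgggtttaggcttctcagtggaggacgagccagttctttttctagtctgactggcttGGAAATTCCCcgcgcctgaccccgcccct
Cxcl10, chr5:92348890-92349139, minus strand: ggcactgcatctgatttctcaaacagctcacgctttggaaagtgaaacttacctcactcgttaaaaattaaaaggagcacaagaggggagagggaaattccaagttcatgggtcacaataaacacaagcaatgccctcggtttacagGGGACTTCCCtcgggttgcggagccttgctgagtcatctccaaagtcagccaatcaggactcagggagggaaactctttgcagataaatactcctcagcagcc
Tnfaip3, chr10:19015411-19015660, minus strand: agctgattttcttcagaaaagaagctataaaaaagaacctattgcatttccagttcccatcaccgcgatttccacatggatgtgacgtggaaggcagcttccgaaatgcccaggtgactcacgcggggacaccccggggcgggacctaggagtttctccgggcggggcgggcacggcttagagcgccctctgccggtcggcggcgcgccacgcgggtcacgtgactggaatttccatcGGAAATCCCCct

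Cxcl2 held 2 matches, beginning 97 and 78 bases before the start. The other 3 promoters held 1 each, at 29 bases before the start in Nfkbia, 103 in Cxcl10 and 12 in Tnfaip3. Of the 175 higher genes 118 had a promoter in the RefSeq table, and 10 of these (8.47%) held a match: Bcl3, Ccrl2, Cxcl10, Cxcl2, Fxyd5, Gjb5, Nfkbia, Rab15, St6gal1 and Tnfaip3. The share was 3.74% (4 of 107) in lower genes, 4.47% (392 of 8763) in all genes tested and 3.73% (1007 of 27025) over the whole table. These shares are a description of letters in the window and were not tested.

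Interferon-response genes did not move as a block. Of 24 tested, 4 were called higher (Oas2, Oasl2, Cxcl10 and Irf7), against 1.51% of all genes, and none lower, with a median of 0.20. Irf7, a transcription factor of the type I interferon response, reached 19.3, 13.3 and 19.2 FPKM in KO_CAF, compared with 5.95, 6.79 and 6.44 FPKM in NPF (1.29 ± 0.25, adjusted p = 0.0465). Classical members such as Ifit3 (-2.07, adjusted p = 0.246) and Isg15 (-0.41, adjusted p = 0.735) lay below 0. Without NPF 1, 2 or 3 in turn, no member of the list was called, and with the index form of the labels as a term Oasl2 and Irf7 turned negative (-0.72 and -0.90). In antigen presentation, 0 of 6 MHC class II genes and 0 of 10 class I genes were called, with medians of 1.47 and 0.99. Cd74, the class II invariant chain, held 1.04, 2.76 and 7.67 FPKM in the NPF libraries and 40.8, 7.99 and 33.4 FPKM in KO_CAF (2.53 ± 0.72, adjusted p = 0.123). H2-T23, a non-classical class I gene, was at 42.8, 40.4 and 48.3 FPKM in NPF against 80.1, 93.1 and 108 FPKM in KO_CAF (1.07 ± 0.27, adjusted p = 0.0962). The levels of macrophage markers, which carry class II genes too, are given with the other cell type markers.

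Wnt signalling genes, mainly secreted ligands and antagonists, were among those that rose. Of 23 tested, 5 were called higher (Sfrp1, Fzd1, Wnt2, Sfrp2 and Wnt4), against 1.51% of all genes, and none lower, with a median of 1.18. Sfrp1, a secreted Wnt antagonist, reached 410, 668 and 386 FPKM in KO_CAF, compared with 62.5, 15 and 21.3 FPKM in NPF (4.07 ± 0.56, adjusted p = 0.0200). Its relative Sfrp2 differed by 5.17 ± 0.85 (adjusted p = 0.0300). The ligand Wnt2 held 0.528, 4.97 and 4.13 FPKM in the NPF libraries and 50.8, 31.5 and 43.9 FPKM in KO_CAF (3.55 ± 0.53, adjusted p = 0.0237), and the receptor Fzd1 differed by 3.15 ± 0.44. The libraries of the groups did not overlap in these genes, which holds for every called gene. In TGF-beta and BMP signalling, Inhbb (2.28 ± 0.30) and Tgfb3 (1.91 ± 0.32) were the 2 called of 24, with a median of 0.74. Both were higher, against 1.51% of all genes. Inhbb is an activin subunit and Tgfb3 a TGF-beta ligand. Without NPF 2, none of the genes of either list was called.

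Of the retinoid handling genes, Rdh10 and Rbp4 were called higher. Rdh10, the retinol dehydrogenase that makes retinal, was at 2.99, 6.51 and 7.26 FPKM in NPF against 63.2, 62.5 and 74.2 FPKM in KO_CAF, an 11.9-fold difference of means (3.43 ± 0.33, adjusted p = 0.00560). It is 1 of 4 named genes called in all 15 alternatives. Rbp4, the retinol carrier, reached 57.1, 43.3 and 50.6 FPKM in KO_CAF, compared with 2.21, 5.91 and 7.81 FPKM in NPF (3.14 ± 0.40, adjusted p = 0.0173). These were the 2 called of 17 tested, against 1.51% called higher of all genes. The median was 1.35 with 15 above 0, and without NPF 2 only Rdh10 was called. Aldh1a2, which makes retinoic acid, and the membrane receptor Stra6 were not called (2.65, adjusted p = 0.0837; 3.31, adjusted p = 0.0677).

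Growth factors went both ways. Csf3, the granulocyte colony-stimulating factor, held 0, 0.168 and 0.0397 FPKM in the NPF libraries and 5.39, 5.79 and 1.60 FPKM in KO_CAF (2.18 ± 0.39, adjusted p = 0.0377). Bdnf, a neurotrophin, was at 29.2, 30.8 and 15.4 FPKM in NPF against 0.283, 2.06 and 1.96 FPKM in KO_CAF (-3.47 ± 0.44, adjusted p = 0.0164). Kitl, the ligand of the Kit receptor, and Fgf10, a mesenchymal growth factor of pancreas development, were also lower, by -2.51 ± 0.34 and -2.82 ± 0.47. That made 1 higher and 3 lower of 27 tested, against 1.51% higher and 1.27% lower of all genes, with a median of 0.18. Without NPF 2, none of the 4 was called.

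Several secreted products outside these lists were among the largest rises. Calca, which encodes calcitonin and the peptide CGRP, reached 122, 38.7 and 66.2 FPKM in KO_CAF, compared with 0.0531, 0.136 and 0.559 FPKM in NPF (5.81 ± 0.43, adjusted p = 0.00319). Slpi, a secreted inhibitor of leukocyte proteases, held 0.683, 0.620 and 1.25 FPKM in the NPF libraries and 519, 17.2 and 64.0 FPKM in KO_CAF (5.54 ± 1.08, adjusted p = 0.0482). Slpi was uneven among the KO_CAF libraries, with KO_CAF 1 far above the other 2, and it kept its call in 6 of the 15 alternatives. Cthrc1, a secreted collagen triple helix protein of activated fibroblasts, was at 18.5, 5.17 and 3.89 FPKM in NPF against 86.4, 327 and 251 FPKM in KO_CAF (4.53 ± 0.68, adjusted p = 0.0233). Its call was kept in 8 of the 15 alternatives. Tnfsf11, which encodes the cytokine RANKL, and Bdkrb1, a bradykinin receptor, are 2 of the genes called whichever library was left out, and were named after their values were seen. Tnfsf11 reached 11, 14 and 9.83 FPKM in KO_CAF, compared with 0.501, 0 and 0.0447 FPKM in NPF. Bdkrb1 held 2.40, 2.30 and 1.78 FPKM in the NPF libraries and 46.4, 36.0 and 71.7 FPKM in KO_CAF.

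The structural matrix was higher on the median, with few calls. Over all genes 1.51% were called higher. Of 22 collagen chains 20 lay above 0, the median was 0.90, and 1 was called (Col8a2, 2.19 ± 0.41, adjusted p = 0.0413), which was not called without NPF 2. Col1a1, a chain of type I collagen, was at 312, 686 and 764 FPKM in NPF against 6029 and 3426 FPKM in KO_CAF 1 and 3, and is listed at 0 in KO_CAF 2. Col1a2, the other chain, showed 360, 683 and 991 FPKM in NPF, 3014 and 4104 FPKM in KO_CAF 1 and 3, and again 0 in KO_CAF 2. With these zeros set to missing the differences were 3.05 ± 0.76 and 2.49 ± 0.75 (adjusted p = 0.104 and 0.150), and with them kept both turned negative (-0.998 and -1.44). Fn1, fibronectin, did the same: its NPF levels of 350, 541 and 503 FPKM compare with 2629 and 851 FPKM in KO_CAF 2 and 3, with a listed 0 in KO_CAF 1 (1.71 ± 0.71, adjusted p = 0.262; -1.81 with the 0 kept). Col3a1 is listed at 0 in both KO_CAF 1 and KO_CAF 2 and stood at 9050 FPKM in KO_CAF 3, so nothing can be read from its difference.

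No member of the 24 matrix glycoproteins or the 16 collagen processing enzymes was called, with medians of 1.29 and 0.39. Among 23 matrix proteases and inhibitors, Ctsc, Plat and Adamts15 were called higher and Mmp13 lower, with a median of 0.69. The shares of all genes were 1.51% higher and 1.27% lower. Ctsc, cathepsin C, an activator of serine proteases, held 6.26, 2.98 and 3.21 FPKM in the NPF libraries and 67.5, 54.3 and 86.9 FPKM in KO_CAF (3.81 ± 0.33, adjusted p = 0.00369). Plat, tissue plasminogen activator, was at 44.1, 58.7 and 104 FPKM in NPF against 400, 333 and 403 FPKM in KO_CAF (2.53 ± 0.41, adjusted p = 0.0282). Mmp13, a collagenase, reached 2.51, 0.236 and 0.943 FPKM in KO_CAF, compared with 10.3, 12.2 and 6.68 FPKM in NPF (-2.36 ± 0.42, adjusted p = 0.0377). Without NPF 2, 1 of the 3 higher genes was called and Mmp13 was not, and with the index form as a term Mmp13 turned positive (0.27).

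The contractile program was not higher. Of 20 contractile genes 6 lay above 0 and the median was -0.40. Acta2, smooth muscle actin, held 306, 441 and 270 FPKM in the NPF libraries and 331, 73.9 and 220 FPKM in KO_CAF (-0.91 ± 0.60, adjusted p = 0.453). Ppp1r14a, an inhibitor of myosin phosphatase, was the 1 called member (-2.23 ± 0.41, adjusted p = 0.0407), and it lost its call whichever of the 6 libraries was left out. The plot of the gene lists gives these values member by member.

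**Figure D3:**
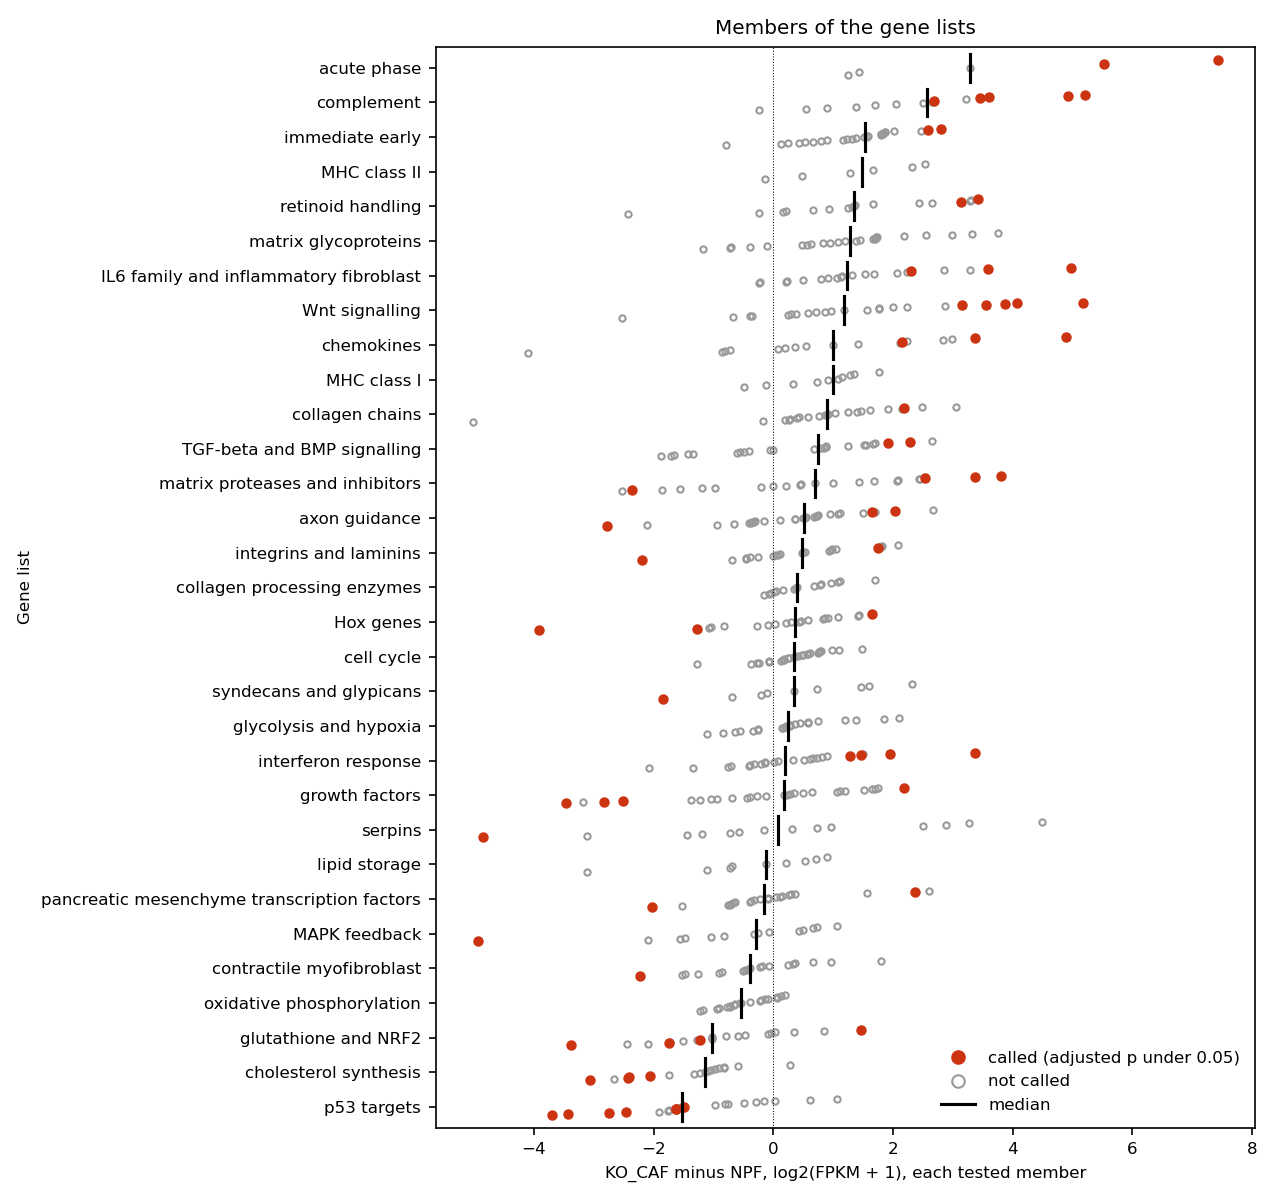
Difference between KO_CAF and NPF on the log2(FPKM + 1) scale for each tested member of the 31 gene lists that are not cell type markers, ordered by the list median (black bar). Filled red points are called members and open grey points are not. Acute phase and complement lie at the top, with medians of 3.28 and 2.57, and cholesterol synthesis and p53 targets at the bottom, with medians of -1.14 and -1.52.

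Targets of p53 were lower in KO_CAF, which differs from NPF in K-Ras, Trp53, tumor and Saa3 at once. Of 22 tested, 7 were called lower (Perp, Gdf15, Psrc1, Ccng1, Mdm2, Aen and Trp53inp1), against 1.27% of all genes. None was called higher, and the median was -1.52. In 14 of the 22 every KO_CAF library was below every NPF library, against 15% of all genes. Ccng1, cyclin G, was at 285, 279 and 157 FPKM in NPF against 27.4, 31.0 and 46.2 FPKM in KO_CAF, 6.90-fold lower by means (-2.74 ± 0.38, adjusted p = 0.0200). Perp, a membrane protein of p53-dependent apoptosis, reached 1.66, 1.53 and 1.86 FPKM in KO_CAF, compared with 30.7, 34.8 and 20.2 FPKM in NPF (-3.43 ± 0.27, adjusted p = 0.00334). The stress cytokine Gdf15 held 31.7, 85.8 and 59.4 FPKM in the NPF libraries and 3.17, 5.08 and 2.07 FPKM in KO_CAF (-3.70 ± 0.43, adjusted p = 0.0125). Mdm2, the ubiquitin ligase that degrades p53, was at 62.1, 78.1 and 50.7 FPKM in NPF against 16.1, 22.5 and 20.8 FPKM in KO_CAF (-1.63 ± 0.29, adjusted p = 0.0370). Each of these 4 genes was lower in every KO_CAF library than in any NPF library, which holds for every gene called lower. The cell cycle inhibitor Cdkn1a missed the threshold, at 100, 209 and 167 FPKM in NPF and 62.7, 27.4 and 35.6 FPKM in KO_CAF (-1.91 ± 0.43, adjusted p = 0.0709). The Trp53 transcript reached 32.4, 21.8 and 30.4 FPKM in KO_CAF, compared with 33.6, 45.7 and 37.0 FPKM in NPF (-0.45 ± 0.28, adjusted p = 0.421). The sources used here do not say whether the floxed Trp53 allele of the KO_CAF mice was recombined in these fibroblasts. Without NPF 2, 1 of the 7 was called, and 2 to 4 without each other library.

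Of the D-type cyclins, which drive entry into the cycle, 2 were lower, while no gene of the cell cycle list was called. Ccnd1 held 129, 137 and 73.5 FPKM in the NPF libraries and 3.88, 2.40 and 1.86 FPKM in KO_CAF, 41.8-fold lower by means (-4.93 ± 0.35, adjusted p = 0.00319). Ccnd2, named after its values were seen, was at 90.6, 84.7 and 64.8 FPKM in NPF against 26.3, 11 and 13.8 FPKM in KO_CAF (-2.24 ± 0.37, adjusted p = 0.0300). Ccnd3 reached 51.7, 45.1 and 70.0 FPKM in KO_CAF, compared with 71.8, 65.0 and 86.2 FPKM in NPF, and was not called (-0.43 ± 0.30, adjusted p = 0.480). The 2 called cyclins were thus low in every KO_CAF library while the third overlapped. Over the 27 cell cycle genes tested the median was 0.35, and 21 lay above 0. Mki67, a proliferation marker, held 1.54, 1.37 and 0.906 FPKM in the NPF libraries and 4.50, 4.42 and 1.99 FPKM in KO_CAF (0.98 ± 0.31, adjusted p = 0.148).

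Sterol synthesis was lower. Of 17 cholesterol synthesis genes tested, 4 were called lower (Nsdhl, Msmo1, Fdps and Idi1), against 1.27% of all genes. None was called higher, the median was -1.14 and 1 lay above 0. In 12 of the 17 the KO_CAF libraries were all below the NPF libraries, against 15% of all genes. Nsdhl, a sterol dehydrogenase, was at 32.1, 37.2 and 22.9 FPKM in NPF against 5.65, 3.95 and 4.84 FPKM in KO_CAF (-2.43 ± 0.28, adjusted p = 0.0112). Msmo1, the sterol methyl oxidase of the same demethylation, reached 12.9, 4.49 and 11.1 FPKM in KO_CAF, compared with 108, 94.1 and 50.5 FPKM in NPF (-3.06 ± 0.46, adjusted p = 0.0233). Early enzymes (Fdps, -2.41 ± 0.39, and Idi1, -2.06 ± 0.37) and late ones were low alike. Sc5d and Hsd17b7, 2 further sterol enzymes outside the list that were named after their values were seen, were lower by -2.65 ± 0.40 and -2.52 ± 0.37 (adjusted p = 0.0232 and 0.0218). Hmgcs1 is listed at 0 in all libraries and gave no value. Without NPF 2, none of the 4 was called, and 1 to 3 without each other library.

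In the glutathione and NRF2 list of 20, 3 antioxidant genes were called lower and 1 higher, against 1.27% and 1.51% of all genes. Nqo1, a quinone reductase, held 19.9, 57.9 and 28.8 FPKM in the NPF libraries and 1.45, 2.19 and 3.18 FPKM in KO_CAF (-3.38 ± 0.42, adjusted p = 0.0164). Gclm, a subunit of the enzyme that starts glutathione synthesis, was at 25.8, 48.1 and 26.1 FPKM in NPF against 8.89, 8.84 and 8.87 FPKM in KO_CAF (-1.74 ± 0.31, adjusted p = 0.0370). The cystine transporter Slc7a11 was lower by -1.23 ± 0.23, and Gsr, glutathione reductase, was higher by 1.46 ± 0.25. The other 16 of the 20 tested were not called, 4 of the 20 lay above 0, the median was -1.02, and without NPF 2 none was called. Of 22 glycolysis and hypoxia genes and 20 oxidative phosphorylation genes none was called, with medians of 0.24 and -0.55.

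Genes of position and patterning changed one by one. Hoxb9, at 19.9, 21.3 and 9.93 FPKM in NPF, was close to undetected in KO_CAF, at 0.179, 0.180 and 0.0548 FPKM (-3.92 ± 0.32, adjusted p = 0.00334). Like Rdh10 and Mpp6 it was called in all 15 alternatives. Hoxb5, also of the Hoxb cluster, was lower by -1.28 ± 0.23, and Hoxa10 was higher by 1.64 ± 0.25. These were the 3 called of 20 Hox genes tested, against 2.78% of all genes in either direction, with a median of 0.36. Gata6, a transcription factor of endoderm and mesoderm, held 6.59, 8.51 and 7.56 FPKM in the NPF libraries and 62.8, 42.2 and 30.0 FPKM in KO_CAF (2.37 ± 0.32, adjusted p = 0.0192). Foxf2, a forkhead factor of gut mesenchyme, was at 9.94, 9.59 and 5.47 FPKM in NPF against 1.17, 1.34 and 1.15 FPKM in KO_CAF (-2.03 ± 0.28, adjusted p = 0.0192). They were the 2 called of 22 mesenchymal transcription factors, against the same 2.78%. Gata6, Foxf2, Hoxb5 and Hoxa10 were not called without NPF 2, and Gata6 turned to -0.16 with the index form of the labels as a term in a fit of all 18 libraries.

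Adhesion and guidance lists held few calls, and over all genes 1.51% were called higher and 1.27% lower. Among 22 integrin and laminin genes, Itgb8 was higher (1.75 ± 0.29) and Itga8 lower (-2.19 ± 0.26), and Gpc4, a glypican, was the 1 called of 9 syndecans and glypicans (-1.84 ± 0.35). Of 28 axon guidance genes, Efna1 and Sema3b were higher and Sema3e lower (2.04 ± 0.36, 1.65 ± 0.31 and -2.78 ± 0.45). None of these 6 was called without NPF 2.

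Several of the largest falls were of genes close to 0 in KO_CAF. Cck, the peptide hormone cholecystokinin, reached 2.33, 0.149 and 0 FPKM in KO_CAF, compared with 337, 240 and 166 FPKM in NPF (-7.25 ± 0.51, adjusted p = 0.00319). Klk8, a kallikrein serine protease, held 24.3, 95.8 and 59.4 FPKM in the NPF libraries and 0.248, 0 and 0.307 FPKM in KO_CAF (-5.49 ± 0.48, adjusted p = 0.00369). Both were high in every NPF library, and Klk8 is the last of the 4 named genes called in all 15 alternatives. Prl2c2 and Prl2c3, members of the prolactin family known as proliferins, stood at 25.4 to 103 FPKM in NPF and at most 0.276 FPKM in KO_CAF. They are near-identical copies, so how the reads were split between them is uncertain. Serpinb9b, the 1 called of 14 serpins, was at 197, 179 and 95.5 FPKM in NPF against 1.15, 5.77 and 8.80 FPKM in KO_CAF (-4.85 ± 0.59, adjusted p = 0.0159). S100a4, a calcium-binding protein often used as a fibroblast marker, reached 43.1, 52.9 and 33.0 FPKM in KO_CAF, compared with 17383, 4053 and 2190 FPKM in NPF (-6.96 ± 0.79, adjusted p = 0.0110). It was high in every NPF library and by far highest in NPF 1. Without NPF 2 or without KO_CAF 3 it was not called (highest adjusted p over left-out libraries 0.0562). Nor was S100a4 called in either fit with the index form as a term.

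**Figure D4:**
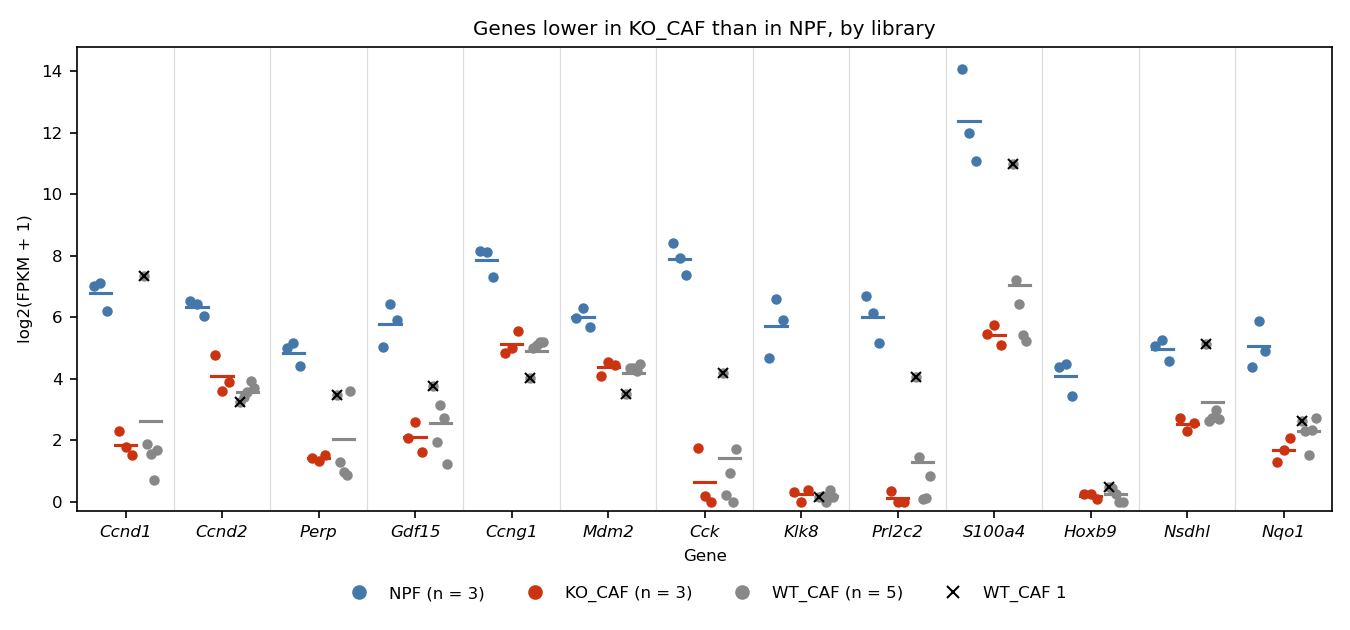
Levels of 13 genes called lower in KO_CAF than in NPF, as log2(FPKM + 1) for each library (points) with the group mean (line). Blue is NPF (n = 3), red KO_CAF (n = 3) and grey WT_CAF (n = 5), and a cross marks WT_CAF 1, which was near NPF for Ccnd1 (161 FPKM), S100a4 (2021 FPKM) and Nsdhl (34.2 FPKM).

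Acinar transcripts made up the other large falls. Of 28 acinar genes 24 were tested and 6 were called, all lower, against 1.27% of all genes. The median was -6.57 and none lay above 0, although a gene could pass the filter through NPF alone. Cela2a, a pancreatic elastase, held 247, 1462 and 9382 FPKM in the NPF libraries and 0.288, 1.65 and 30.0 FPKM in KO_CAF (-8.31 ± 1.56, adjusted p = 0.0436). Ctrb1, chymotrypsinogen, was at 347, 2088 and 13616 FPKM in NPF against 0.852, 4.64 and 41.4 FPKM in KO_CAF (-8.14 ± 1.54, adjusted p = 0.0444). Levels differed widely within both groups, lowest in NPF 1 and highest in NPF 3 on one side and lowest in KO_CAF 1 and highest in KO_CAF 3 on the other. The list mean on the log2(FPKM + 1) scale was 4.32, 6.50 and 8.98 in NPF and 0.31, 0.68 and 2.98 in KO_CAF. In these bulk libraries fewer cells of a type and less RNA per cell cannot be told apart. The part of acinar RNA in the other differences was not tested. Without NPF 2, or without any 1 of the KO_CAF libraries, no acinar gene was called.

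Markers of other cells differed less. The shares called over all genes were 1.51% higher and 1.27% lower. Universal fibroblast markers had list means of 6.76 to 8.35 in NPF and 6.38 to 7.96 in KO_CAF, and S100a4 was the 1 called of 22. Of 9 pericyte genes, Kcnj8 and its channel partner Abcc9 were called higher, of which Abcc9 kept its call in 3 of the 15 alternatives and lost it whichever library was left out. Kcnj8 reached 53.6, 42.0 and 32.7 FPKM in KO_CAF, compared with 0.309, 1.49 and 1.47 FPKM in NPF (4.42 ± 0.35, adjusted p = 0.00334). The other 7 pericyte genes, Cspg4 (0.16) and Mcam (0.33) among them, did not pass the test. Of 20 macrophage and myeloid genes listed, 10 passed the filter, and all 10 lay above 0 (median 1.61). A gene could pass through KO_CAF alone, so this direction is partly set by the filter. Csf1r, with means of 0.847 FPKM in NPF and 5.55 FPKM in KO_CAF, was called (1.73 ± 0.34, adjusted p = 0.0494). It kept this call in just 1 of the 15 alternatives and lost it whichever library was left out. The myeloid list means, over genes tested or not, were 0.82 to 1.13 in NPF against 3.36, 1.31 and 1.82 in KO_CAF. Ptprc, the pan-leukocyte marker, stood at 0.0290 to 0.240 FPKM in NPF and at 1.18, 0.167 and 1.45 FPKM in KO_CAF. Epithelial and duct genes had list means of 0.98, 1.27 and 2.05 in NPF and 3.07, 0.80 and 2.48 in KO_CAF, with none of 12 called. KO_CAF 1 was highest of the 6 in both the myeloid and the epithelial list, and Slpi, Wnt4 (113 FPKM) and Clu were also highest there. KO_CAF 2 had the lowest epithelial list mean, with Epcam at 0.0962 FPKM. No endocrine gene passed the filter, none of 8 endothelial or 13 mesothelial genes was called, and the part of these markers in other differences was not tested.

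**Figure D5:**
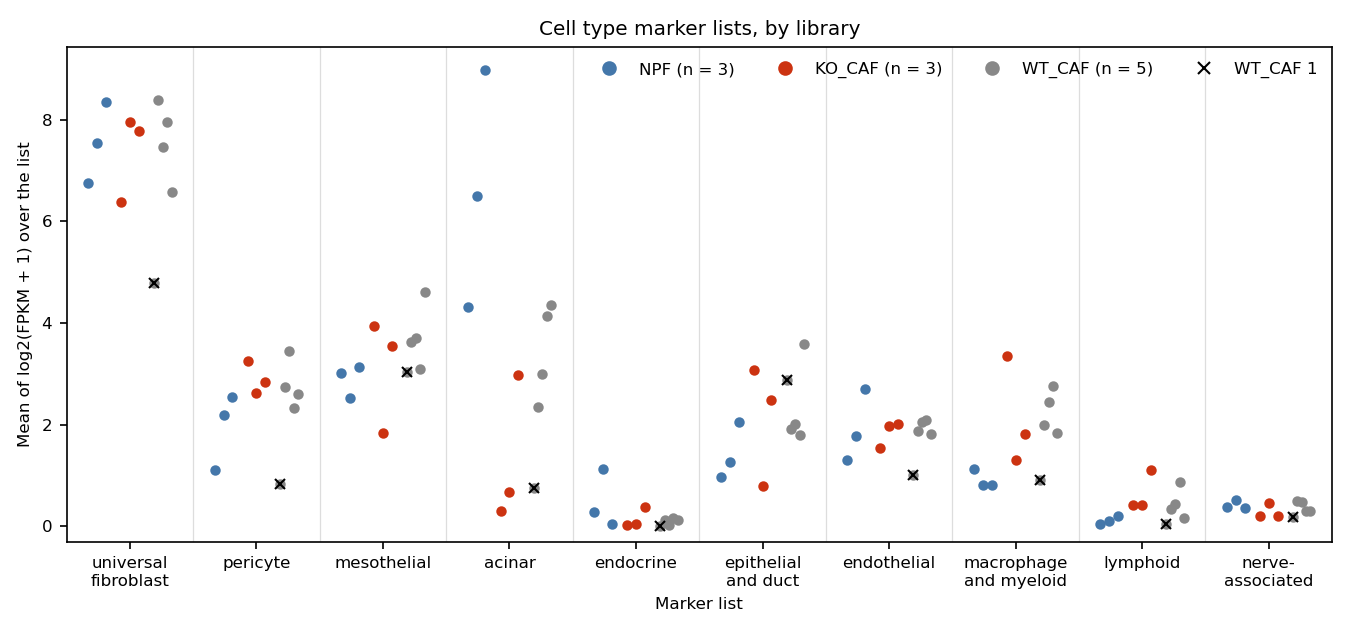
Mean of log2(FPKM + 1) over each of the 10 cell type marker lists, for each NPF (blue, n = 3), KO_CAF (red, n = 3) and WT_CAF (grey, n = 5) library, with a cross on WT_CAF 1. The acinar list separates NPF (4.32 to 8.98) from KO_CAF (0.31 to 2.98), while fibroblast means overlap.

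KO_CAF was then set against WT_CAF in a fit of the 11 fibroblast libraries. Of 12336 genes, 3 were higher in KO_CAF (0.0243%) and 0 lower by limma's test, with 118 genes at an unadjusted p under 0.05. The 3 were Mpp6 (4.33 ± 0.37, adjusted p = 0.00180), Dynlt1b (1.95) and Rnaset2b (1.30). Dynlt1b, a dynein light chain, stood at 4.15, 1.67 and 3.18 FPKM in KO_CAF and Rnaset2b, a ribonuclease, at 1.86, 1.15 and 1.42 FPKM, and both are listed at 0 in all 8 NPF and WT_CAF libraries. Both have near-identical copies in the mouse genome, so the split of reads between copies is uncertain. Without WT_CAF 1, Mpp6 and Dynlt1b were called.

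Genes that rose or fell against NPF were also set beside WT_CAF 2 to 5. Hp stood at 555, 200, 1200 and 405 FPKM in WT_CAF 2 to 5, and the difference from KO_CAF was 0.15, with a 95% interval of -1.21 to 1.51. Cfb differed by -0.27 (-1.47 to 0.93), Il33 by 0.30 (-1.13 to 1.73), Sfrp1 by 0.57 (-0.59 to 1.72) and Ctsc by 0.01 (-0.68 to 0.70). Among genes that fell, Ccnd1 differed by 0.41 (-0.36 to 1.18), Ccng1 by 0.01 (-0.62 to 0.65), Hoxb9 by 0.01 (-0.60 to 0.61) and Nsdhl by -0.22 (-0.73 to 0.29). Without WT_CAF 1, for Ctsc, Ccng1 and Nsdhl the interval thus allows less than a 2-fold difference in either direction, while for Hp and Il33 it allows more. Hoxb9 stood at 0.376 FPKM or less in KO_CAF and WT_CAF 2 to 5. At such levels an interval on the log2(FPKM + 1) scale sets no limit on a fold difference. With WT_CAF 1 included Hp differed by 1.40 (-1.57 to 4.36), Cfb by 0.93 (-1.88 to 3.73), Il33 by 1.19 (-1.14 to 3.53), Sfrp1 by 1.40 (-0.69 to 3.49) and Ctsc by 0.07 (-0.59 to 0.74). Ccnd1 then differed by -0.77 (-3.41 to 1.88), Ccng1 by 0.23 (-0.53 to 0.99), Hoxb9 by -0.05 (-0.64 to 0.54) and Nsdhl by -0.70 (-1.84 to 0.44), so that the interval of Nsdhl allows more than a 2-fold difference. Saa3 differed by -9.76 ± 1.28 without WT_CAF 1 and missed the threshold (adjusted p = 0.0536), and by -8.21 ± 1.92 with it (adjusted p = 0.9999). Of the acinar genes, Ctrb1 differed from WT_CAF 2 to 5 by -4.29 (-7.00 to -1.58) and from all 5 by -3.41 (-6.53 to -0.28), and none was called.

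The index form could be entered as a term only by adding the other groups, since outside NPF just WT_CAF 1 and 2 have labels with no index. In that fit of all 18 libraries, 4 genes were higher (Mpp6, Rdh10, AA465934 and Ctsc) and 14 lower, among them Hoxb9, Klk8, Itga8 and Ccng1. The size of each difference then rests on WT_CAF 1 and 2: Hp went from 7.42 to 4.55 ± 1.90 (adjusted p = 0.501) and Ccnd1 from -4.93 to -1.83 ± 1.55 (adjusted p = 0.747). Without WT_CAF 1, 22 genes were higher and 16 lower, and Hp stood at 7.76 (adjusted p = 0.0391) and Ccnd1 at -4.57 (adjusted p = 0.106). Within the form of label without an index there is no KO_CAF library, and within the 2 other forms no NPF library, so no difference between KO_CAF and NPF can be computed inside 1 form.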

How the data were processed

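Per the labels' protocols, poly(A) RNA of cells sorted from fresh mouse pancreas and pancreatic tumors went into Illumina TruSeq libraries and was read on a HiSeq2000. FPKM values for all 18 libraries were deposited by the authors in 1 table. The submitters' processing notes name Cufflinks 2.2.1 with Cuffnorm, TopHat2 2.0.10 with Bowtie 1.0.0, FastQC, and SAMtools 0.1.19, and as builds mm9, GRCh37 and hg19, of which just mm9 is of the mouse. Tool settings and gene annotation: not given in the sources used here.

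Values were taken as log2(FPKM + 1) and tested with limma 3.58.1 (trend, two-sided) in R 4.3.3 on the 6 libraries, leaving 4 residual degrees of freedom. Genes at 1 FPKM in at least 3 libraries were kept and 12333 removed. A gene could be kept through the 3 libraries of 1 group alone. In lists with low members, the number above or below 0 is therefore partly set by the filter. P-values were adjusted by Benjamini-Hochberg over all genes tested, and an adjusted p under 0.05 was called. Fold changes on this scale understate those of low genes. A 0 beside replicates of its group all at 50 FPKM or more can be a failed estimate and was set to missing (17 values). The exact permutation test of 3 against 3 cannot go below p = 0.1 and was not used. KO_CAF and WT_CAF were compared in 1 fit of 11 libraries.

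Named genes were Saa3, Mpp6, Pdgfra and Trp53, the 15 largest rises and 15 largest falls among called genes whose higher group averaged at least 5 FPKM, and up to 4 called members per list and direction (or the 2 smallest p where none was called). Others are marked as chosen after their values were seen, or stand beside a list as background. The members, lists and rules were chosen with earlier results of these data known. The 41 lists were written by hand, and 13 held no called member. Nothing in the labels says that libraries of a group came from separate animals beyond the design's mention of replicates, so p-values measure the spread between these libraries. The test was tried on simulated data first. The alternatives were the pseudocount (0.1), no filter, zeros as deposited, centred libraries, a robust prior, each library left out, and fits of more libraries with and without the index form. The result of 1 list member is not reported here. Counts were not used, and the exact depth is unknown.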

Additional observations from a re-analysis of the deposited data

Results flagged for a closer look

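Of the 33 named genes checked for a library far from the others of its group, 9 had one among the 5 WT_CAF libraries. WT_CAF was the only fibroblast group large enough for the check. The check was made on FPKM and not on the log2 scale, and all 9 flagged values were high ones. It did not flag WT_CAF 1 for Hp, at 5.45 FPKM against 200 to 1200 FPKM in WT_CAF 2 to 5. No rate expected by chance is therefore given. WT_CAF 1 was the high library for Cck (17.4 FPKM), S100a4 (2021 FPKM), Prl2c2 (15.6 FPKM), Prl2c3 (46.2 FPKM) and Ccnd1 (161 FPKM), all genes that were lower in KO_CAF than in NPF. WT_CAF 5 was the high library for Slpi (443 FPKM), Zg16 (82.8 FPKM) and Crct1 (0.811 FPKM), and WT_CAF 4 for Pnlip (81.4 FPKM). No NPF or KO_CAF library was checked this way, with 3 libraries a group.

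The difference of KO_CAF from WT_CAF passed the test for Mpp6 (4.33), Dynlt1b (1.95) and Rnaset2b (1.30, all log2), and without WT_CAF 1 for Mpp6 (4.49) and Dynlt1b (1.95) but not for Rnaset2b.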

How the results depend on the processing

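The 175 higher and 148 lower genes of KO_CAF against NPF became 76 and 81 with no filter on low values (more genes enter the adjustment), 33 and 82 in the fit of 11 libraries, 93 and 152 in the fit of 18 libraries, 4 and 14 there with the index form, and 22 and 16 with the index form and without WT_CAF 1; the cause was not tested. With 1 library left out the counts ranged from 19 to 129 higher and from 13 to 93 lower, both lowest without NPF 2, with fewer samples in the fit. For KO_CAF against WT_CAF the 3 higher and 0 lower genes became 1 to 2 and 0 to 1 with 1 library left out, and 1 higher with the index form. Libraries centred on the median ratio, zeros as deposited, a pseudocount of 0.1 and a robust prior kept every such count within 1.5 times, and the share of calls that were higher was 57.3% after centring against 54.2%, and 22.2% (index form) to 64.8% (without KO_CAF 2) over all alternatives. With the index form these differences changed sign: Pdgfra (-1.02), Rrm2 (0.29), Oasl2 (-0.72), Irf7 (-0.90), H2-Aa (-0.75), Cd74 (-0.26), Psmb8 (-0.51), H2-T23 (-0.18), Mmp13 (0.27) and Gata6 (-0.16). With zeros as deposited so did Col1a1 (-0.998), Col1a2 (-1.44), Fn1 (-1.81) and C3 (-0.39). Of the 87 named called genes, 83 kept their direction in all 15 alternatives and 4 their call. No paired analysis was possible because the labels carry no replicate numbers. With depth unknown, no limit on low genes can be given.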

Other observations

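Genes of amino acid supply and its stress response, chosen after their values were seen, were lower in KO_CAF than in NPF. Phgdh, the first enzyme of serine synthesis, held 89.3, 92.2 and 72.5 FPKM in the NPF libraries and 31.4, 16.4 and 20.8 FPKM in KO_CAF (-1.88 ± 0.32, adjusted p = 0.0335). Asns, asparagine synthetase, was at 87.3, 51.4 and 54.2 FPKM in NPF against 23.1, 15.2 and 20.0 FPKM in KO_CAF (-1.65 ± 0.32, adjusted p = 0.0456). Mthfd2, a mitochondrial folate enzyme, Trib3, a pseudokinase of the stress response, and Chac1, which degrades glutathione, differed by -1.88 ± 0.33, -1.94 ± 0.32 and -2.47 ± 0.40. In each of the 5 genes all KO_CAF libraries were below all NPF libraries, which holds for every gene called lower. Each of the 5 lost its call with at least 1 library left out. WT_CAF 1 held the highest Phgdh level of the 11 fibroblast libraries (315 FPKM).

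Surface and signalling genes outside the lists were among those that rose, and were likewise chosen after their values were seen. Chl1, a neural adhesion molecule, reached 19.4, 38.1 and 21.9 FPKM in KO_CAF, compared with 0.442, 0.130 and 0.237 FPKM in NPF (4.38 ± 0.31, adjusted p = 0.00319). Cpz, a carboxypeptidase with a Wnt-binding domain, held 4.31, 1.79 and 2.02 FPKM in the NPF libraries and 37.7, 80.0 and 77.8 FPKM in KO_CAF (4.14 ± 0.40, adjusted p = 0.00560). Prickle1, of planar cell polarity, was at 1.36, 3.68 and 3.64 FPKM in NPF against 39.4, 37.2 and 35.7 FPKM in KO_CAF (3.37 ± 0.32, adjusted p = 0.00560). These 3 were called whichever library was left out. Nt5e, the ecto-enzyme CD73 that makes adenosine, reached 94.0, 12.0 and 20.9 FPKM in KO_CAF, compared with 1.01, 0.0725 and 0.314 FPKM in NPF (4.41 ± 0.70, adjusted p = 0.0276). Runx1, a transcription factor, held 3.72, 3.16 and 2.44 FPKM in the NPF libraries and 36.3, 21.8 and 23.7 FPKM in KO_CAF (2.76 ± 0.29, adjusted p = 0.00742).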
